A study of Drosophila melanogaster with 3 samples.

Results

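The oxidative phosphorylation genes described here are the nuclear protein-coding genes of Drosophila melanogaster that build the respiratory chain and the ATP synthase, and what was measured is where Ets65A, a transcription factor of the ETS family tagged with GFP, was found at their transcription start sites (TSSs). Members were the genes whose names begin with ND- (complex I), UQCR- (complex III), COX and a digit (complex IV) or ATPsyn (complex V), which gave 80 of 13945 protein-coding genes on the main chromosome arms. Complex I had 40 members, complex III 9, complex IV 16 and complex V 15. Of the 80, 21 were L paralogues, whose names are those of another subunit with L or L and a digit added, and 59 were main copies. Complex II (the Sdh genes) and subunits with other names, such as levy or blw, fell outside the naming rule and are given separately.

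Chromatin immunoprecipitation and sequencing had been carried out on whole embryos, 0 to 24 h old and of both sexes pooled, in 3 biological replicates of 1 group. The embryos came from a transgenic strain labelled ets3-GFP that stably carried Ets65A with GFP at its C-terminus, and the promoter driving the fusion is not given in the sources used here. The precipitation used an antibody against GFP according to the sample descriptions, although the antibody field names Ets65A. All cell types of the embryo and a full day of development were mixed in each sample, and no group without the fusion was compared here.

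Complex I oxidises NADH, complex III passes electrons from ubiquinol to cytochrome c, complex IV reduces oxygen, and complex V uses the resulting proton gradient to make ATP. Most of their subunits are encoded in the nucleus, and many Drosophila subunits have a second gene copy; such duplicates are known for expression concentrated in the testis. In mammals an ETS factor, GABP (also called NRF-2), is known for binding the promoters of respiratory chain genes at CCGGAA sequences. In Drosophila, promoters of nuclear mitochondrial genes are known for a palindromic nuclear respiratory gene (NRG) element, and a core promoter element with the letters GGTCACAC is bound by the factor M1BP.

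The authors deposited peaks of each replicate, peaks called on the pooled replicates, and the peaks that passed their threshold on the irreproducible discovery rate (IDR peaks), all in the dm6 build. The IDR list held 2780 peaks, the pooled list 28940 and each replicate list 30000, and each peak carried a signal value, the authors' score of its height, on a scale that is not stated. IDR peaks were the top of the pooled list by signal value, down to 71.8. A gene is said to have an IDR peak when the summit of such a peak was no more than 500 bp from the TSS of any of its protein-coding transcripts, and a pooled peak only when a summit of the longer pooled list alone did. Pooled peaks include weak calls, with a −log10 q as low as 0.0177 against 3.23 in the IDR list. No read counts come with such lists, and the depth of sequencing is therefore unknown.

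Sequences around the IDR summits of 8 of the 14 members that had one show what lay under the bound positions; the other 6, some of them with a higher signal value, are not printed. The 8 below are the stretches of dm6 within 60 bp of the summit, cut where a stretch would have run into an untranslated region, and they are written 5′ to 3′ on the strand of the named gene. Capitals mark the elements that were searched for: the hexamers ACACTG and CGATAG, which lay within 100 bp of 24.6% and 21.8% of the 1642 IDR summits at promoters, the M1BP element, the NRG element, the DREF element TATCGATA and the ETS core CCGGAA, each on either strand.
ND-ASHI, chrX:6679316-6679436, minus strand: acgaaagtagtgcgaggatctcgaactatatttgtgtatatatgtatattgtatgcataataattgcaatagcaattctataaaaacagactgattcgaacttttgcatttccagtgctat
ND-51, chr2L:6062841-6062961, minus strand: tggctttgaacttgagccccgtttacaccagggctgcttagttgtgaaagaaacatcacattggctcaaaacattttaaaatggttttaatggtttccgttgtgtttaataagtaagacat
COX5B, chr2L:6557503-6557600, plus strand: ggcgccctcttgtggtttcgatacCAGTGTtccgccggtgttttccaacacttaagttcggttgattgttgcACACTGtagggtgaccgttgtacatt
COX6B, chrX:19744336-19744430, minus strand: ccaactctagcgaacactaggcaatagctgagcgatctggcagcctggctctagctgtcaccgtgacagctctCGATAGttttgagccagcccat
COX5A, chr3R:11819462-11819547, plus strand: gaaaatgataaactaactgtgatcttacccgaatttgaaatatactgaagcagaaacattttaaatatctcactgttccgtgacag
ND-SGDH, chr3L:12138634-12138754, minus strand: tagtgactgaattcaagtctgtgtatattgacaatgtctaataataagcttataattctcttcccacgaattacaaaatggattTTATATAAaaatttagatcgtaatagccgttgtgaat
COX7B, chr3L:17425278-17425398, plus strand: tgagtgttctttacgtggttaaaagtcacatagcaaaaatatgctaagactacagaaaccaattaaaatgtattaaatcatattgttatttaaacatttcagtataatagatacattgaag
ND-MNLL, chrX:7893799-7893893, minus strand: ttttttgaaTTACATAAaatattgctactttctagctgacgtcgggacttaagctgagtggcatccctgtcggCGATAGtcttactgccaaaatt
None of these 8 stretches held the ETS core. COX5B held the first hexamer on both strands, COX6B and ND-MNLL held the second, and ND-SGDH and ND-MNLL held an NRG element.

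Ets65A-eGFP was found at a minority of the subunit genes, at a share close to that of genes in general. An IDR peak lay at 14 of the 80 members (17.5%, 95% Wilson interval 10.7 to 27.3), against 2200 of all 13945 protein-coding genes, which is 15.8%. Another 37 members (46.2%) had a pooled peak only and 29 (36.2%) had no peak, so that 51 (63.8%) had a peak of either kind, against 53.6% of all genes. With pooled peaks limited to a −log10 q of at least 2, 24 members (30%) had a peak, against 25.0% of all genes. All of these shares lie near those of all genes.

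**Figure D1:**
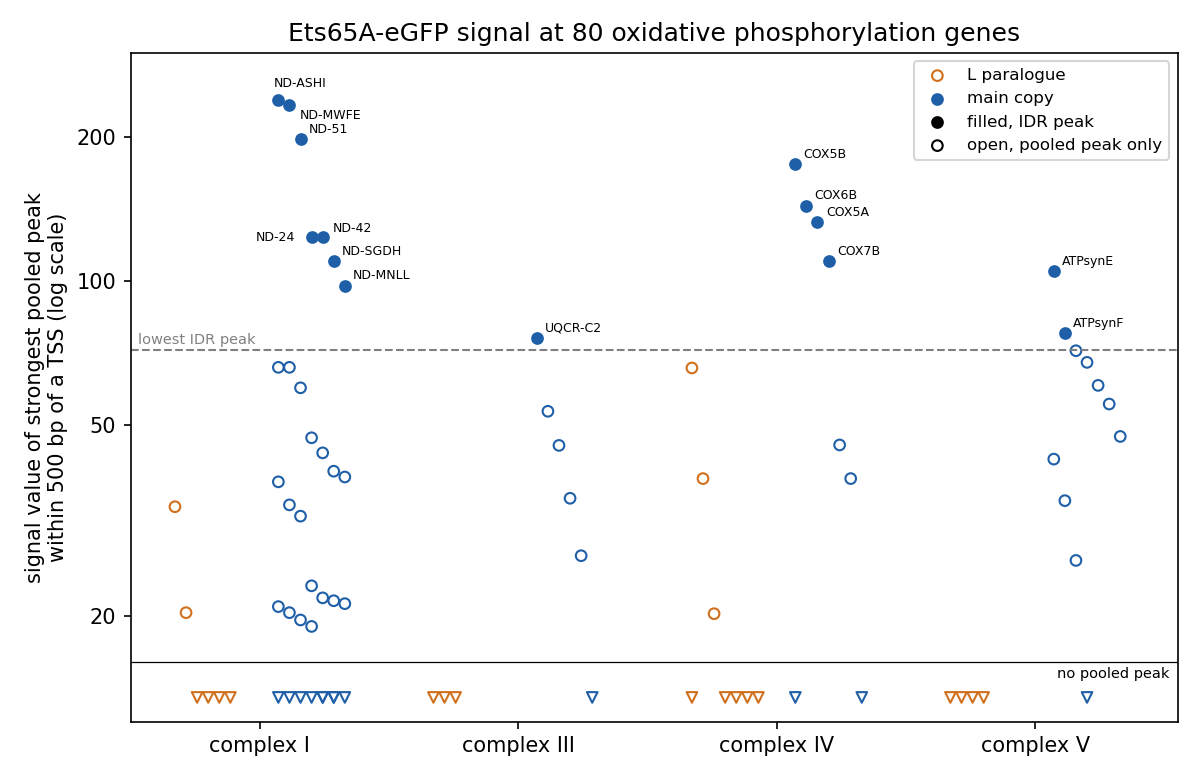
Signal value (log axis) of the strongest pooled peak within 500 bp of a TSS for each of the 80 genes, by complex, with L paralogues (orange) left of main copies (blue), filled points for IDR peaks, open points for pooled peaks only and triangles for no peak. The 14 named main copies lie above the dashed line at 71.8, the lowest IDR signal value, and all 21 orange marks lie below it.

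By complex, an IDR peak lay at 7 of 40 genes of complex I (17.5%, interval 8.75 to 31.9), 1 of 9 of complex III (11.1%, 1.99 to 43.5), 4 of 16 of complex IV (25.0%, 10.2 to 49.5) and 2 of 15 of complex V (13.3%, 3.74 to 37.9). Among main copies alone the counts were 7 of 34 (20.6%), 1 of 6 (16.7%), 4 of 8 (50%) and 2 of 11 (18.2%). The intervals of the complexes overlap each other, all of those for the whole complexes include the 15.8% of all genes, and for the 8 main copies of complex IV, 7 of which have another gene's start within 500 bp, the interval was 21.5 to 78.5. The 14 signal values ran between 76.3 and 239.8, with a median of 124 (95% interval from order statistics 98.0 to 198), beside a median of 116 over all genes with an IDR peak.

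Complex I, the complex with most members, carried the highest signal values, up to 239.8. Its median over genes with an IDR peak was 124, against 138 in complex IV, 91.5 in complex V and 76.3 at the only such gene of complex III. Of its core subunits, which hold the flavin and iron-sulfur centres, 2 of 7 nuclear main copies had an IDR peak (28.6%), 3 had a pooled peak only and 2 had none. Of its accessory subunits, 5 of 27 had an IDR peak (18.5%), 15 a pooled peak only and 7 none. Over all genes 15.8% had an IDR peak and 37.8% a pooled peak only, so the accessory share is near that of genes in general. The core list was written after the data had been seen.

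ND-51 (FBgn0031771, 2L), the core subunit that binds NADH and the flavin, had a signal value of 198 in the pooled list, and 63.3, 73.5 and 63.8 in the lists of replicates 1, 2 and 3. Its summit at 6062901 lay between genes, 144 bp upstream of the nearest ND-51 TSS and 88 bp from that of CG13994 on the other strand. It ranked 328, 490 and 499 among the 30000 peaks of the 3 replicates, the narrowest spread of rank among the 3 members of highest signal. ND-24 (FBgn0030853, X), the core iron-sulfur subunit that works beside ND-51, had 124 in the pooled list and 26.4, 62.9 and 40.6 in the replicates. Its summit at 17632165 was 76 bp downstream of a TSS, in its own 5′ UTR, and its ranks were 1675, 697 and 1313, so that the core pair was among the strongest 2780 peaks of every replicate.

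ND-ASHI (FBgn0029888, X), an accessory subunit of the membrane arm known in mammals as NDUFB8, had the highest signal value of all 80 members, 239.8. Its replicate values were 49.1, 95.9 and 93.0, and its ranks 552, 272 and 198. The summit at 6679376 lay 258 bp upstream of the ND-ASHI start and inside an intron of Fum1, a fumarase gene of the tricarboxylic acid cycle that starts on the opposite strand 164 bp away, so the same peak stood at 2 genes of mitochondrial energy metabolism. ND-MWFE (FBgn0085468, 2R), known in mammals as NDUFA1, had 234 in the pooled list and 97.3, 112 and 27.7 in the replicates. Its ranks of 121, 185 and 2765 put it just inside the strongest 2780 peaks of replicate 3, and its summit at 13158466 was 200 bp upstream of its own start but 21 bp from that of TppII, a peptidase gene in whose intron it lay.

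ND-42 (FBgn0019957, 3R), known in mammals as NDUFA10, had 124 in the pooled list and 40.2, 49.5 and 29.1 in the replicates, with ranks of 832, 1126 and 2518. Its summit at 22027402 was 307 bp upstream of its start, in the 5′ UTR of Cchl and 78 bp from the start of that gene, which encodes the lyase that attaches heme to cytochrome c. ND-42 was the only member with a further IDR peak within reach, of signal value 77.0 and with its summit 84 bp upstream. Between them the strongest ND-ASHI and ND-42 peaks thus stood at divergent pairs in which the partner gene is also mitochondrial.

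ND-SGDH (FBgn0011455, 3L), known in mammals as NDUFB5, had 110.0 in the pooled list and 29.7, 45.6 and 31.6 in the replicates, at ranks 1386, 1330 and 2167, with a summit at 12138694 that was 110 bp upstream of its start. ND-MNLL (FBgn0029971, X), known in mammals as NDUFB1, had 98.0, and 22.7, 42.7 and 26.9 in the replicates at ranks 2169, 1485 and 2922, with a summit at 7893833 that was 35 bp upstream. Both were the nearest annotated start to their peak, although ND-MNLL shares its start with CG45089, an overlapping gene on the same strand. ND-MNLL was the only complex I member of the 7 with a replicate rank beyond 2780.

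In complex III, UQCR-C2 (FBgn0250814, 3L), a core protein of the matrix side of the complex, was the only member with an IDR peak, and the weakest of the 14. It had 76.3 in the pooled list and 16.9, 27.4 and 20.3 in the replicates, and its summit at 16584275 was 2 bp from a start of its own. Its ranks of 3944, 3077 and 4876 were beyond 2780 in every replicate, although each replicate held a peak there. It was also the only member of the 14 whose peak reached no other gene's start.

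All 4 IDR peaks of complex IV were at nuclear subunits that surround its mitochondrially encoded core. COX5B (FBgn0031830, 2L), known in mammals to bind zinc, had 176 in the pooled list and 51.7, 75.0 and 37.6 in the replicates at ranks 484, 474 and 1547. Its summit at 6557540 was 260 bp upstream of its start and 38 bp from that of IFT52, a gene of ciliary transport. COX6B (FBgn0031066, X), a subunit of the intermembrane-space face, had 144, and 50.4, 49.6 and 34.3 in the replicates at ranks 517, 1123 and 1858. Its summit at 19744381 was 46 bp upstream, at a start it shares with CG18809 and 50 bp from the opposite starts of CG33932 and Rpp20, so its peak cannot be given to a particular gene.

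COX5A (FBgn0019624, 3R) had 133 in the pooled list and 35.8, 52.9 and 41.6 in the replicates at ranks 1023, 983 and 1238, with a summit at 11819522 in an intron of its own, 77 bp upstream of its nearest start and 102 bp from that of glo. COX7B (FBgn0040793, 3L) had 110.0, and 28.4, 38.5 and 39.0 in the replicates at ranks 1483, 1772 and 1421, with a summit at 17425338 that was 139 bp upstream and 121 bp from the start of Sec3, an exocyst gene. All 4 complex IV members ranked within the strongest 2780 peaks of all 3 replicates. With each peak given to its nearest gene only, COX5B and COX7B were lost and complex IV had 2.

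In complex V both IDR peaks were at small subunits of the membrane sector. ATPsynE (FBgn0038224, 3R), the e subunit, known in yeast for holding ATP synthase dimers together, had 105 in the pooled list and 40.1, 29.6 and 32.6 in the replicates at ranks 835, 2701 and 2048, with a summit at 14327011 in its own 5′ UTR. ATPsynF (FBgn0035032, 2R), the f subunit, had 77.8, and 8.94, 32.5 and 33.0 in the replicates. Its ranks of 24043, 2329 and 1994 were the most uneven of the 14, with replicate 1 holding only a weak peak there.

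**Figure D2:**
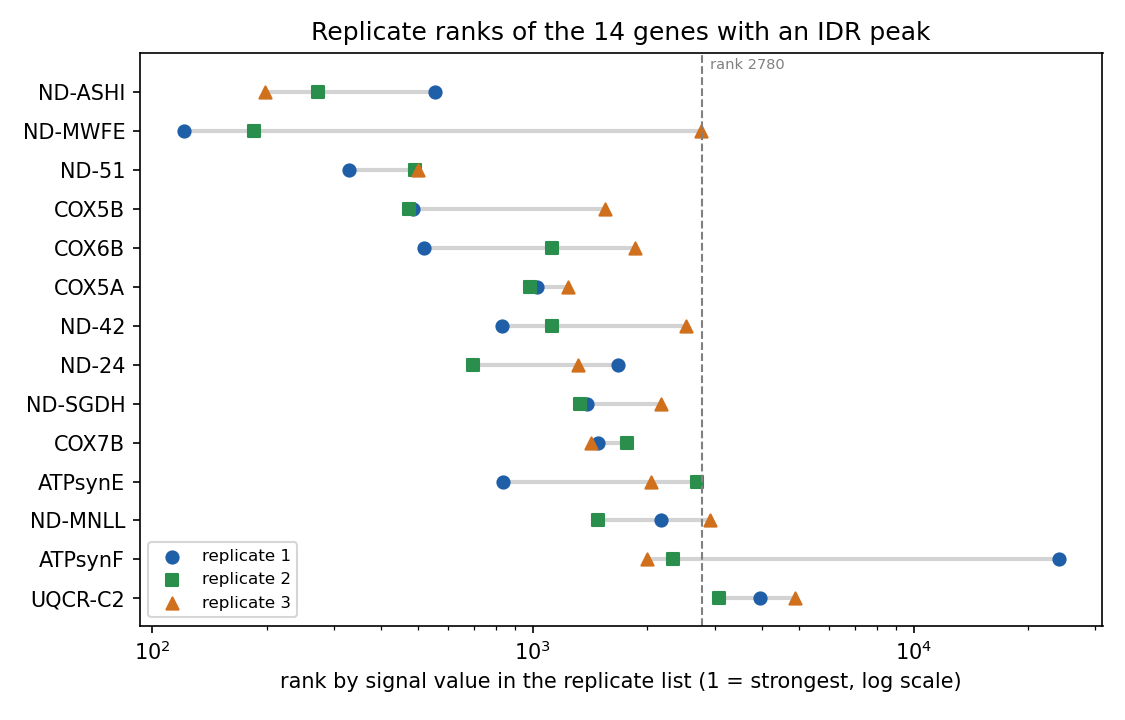
Rank by signal value (log axis, 1 the strongest of 30000) of the strongest peak within 500 bp of a TSS in each of the 3 replicates, for the 14 genes with an IDR peak in order of pooled rank. A dashed line marks rank 2780, beyond which lie replicate 3 of ND-MNLL, replicate 1 of ATPsynF and all replicates of UQCR-C2.

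Replicate ranks gave the spread behind these calls. A peak among the 2780 strongest of all 3 replicates lay at 11 members (13.8%), against 9.75% of all genes, and these were the 14 without ND-MNLL, UQCR-C2 and ATPsynF. A peak of any rank lay at 34, 53 and 58 members in replicates 1, 2 and 3 (42.5%, 66.2% and 72.5%), against 42.4%, 54.1% and 55.4% of all genes. Among the 2780 strongest peaks the counts were 16, 15 and 16 members (20%, 18.8% and 20%), against 14.6%, 15.6% and 15.4%. Replicate 1 thus reached fewest members in its weak peaks but as many as the others in its strong ones. As a description, the Spearman correlation of ranks was taken over members with a peak in both lists. It was 0.72 between replicates 1 and 2 (30 members), 0.62 between 1 and 3 (32 members) and 0.64 between 2 and 3 (48 members). In the same order it was 0.75, 0.68 and 0.74 over all genes. Over the 14 members with an IDR peak it was 0.75, 0.29 and 0.49. All points of a list share its library.

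Several central parts of the ATP synthase were among the strongest members with a pooled peak only. ATPsynC, which forms the rotating ring, had 71.6 at a summit 24 bp from its start, against the lowest IDR value of 71.8, and it ranked 9250, 6255 and 1457 in the replicates. ATPsynB, of the stalk that holds the catalytic head still, had 67.7, with ranks 21102, 4434 and 3284. The others of complex V among the 10 strongest members with a pooled peak only were the catalytic ATPsynbeta (60.6), the stalk subunit ATPsynO (55.4) and ATPsyngamma, the central shaft (47.4). The ATPsynbeta summit was 419 bp from its start and nearer to that of CG11076, and the ATPsyngamma summit was nearer to yata. Complex V therefore had 5 of these 10 places, while its 2 IDR peaks were at the small subunits e and f.

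The remaining 5 of those 10 were ND-B18 (66.1), ND-B22 (66.1) and ND-13B (59.9) of complex I, COX7AL2 (65.9) of complex IV and UQCR-14 (53.5) of complex III. ND-B18 ranked 2670, 2525 and 3206 in the 3 replicates, within the strongest 2780 in replicates 1 and 2. ND-B22 had no peak in replicate 1 and ranked 3915 and 2159 in the other replicates. The other 27 members with a pooled peak only ran between 19.0 (ND-19) and 47.1 (ND-B17.2), and COX8, at 45.5, ranked 1215 in replicate 1 but 6799 and 7480 in the others.

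No pooled peak lay at 29 members. In complex I these were ND-20L, ND-23, ND-24L, ND-49, ND-49L, ND-51L1, ND-ACP, ND-AGGG, ND-B12, ND-B14, ND-B15, ND-B16.6 and ND-MLRQ, and in complex III UQCR-11, UQCR-11L, UQCR-14L and UQCR-6.4L. In complex IV they were COX4, COX5BL, COX6AL, COX6AL2, COX6CL, COX7A and COX7AL, and in complex V ATPsynCF6L, ATPsynG, ATPsynGL, ATPsynbetaL and ATPsynepsilonL. Of the 66 members without an IDR peak within 500 bp, none had one within 1000 bp, and for 42 of them the nearest was beyond 5000 bp. The nearest was 1381 bp from ATPsynD, and ND-39 held an IDR peak of signal value 74.7 inside the gene, 1586 bp from its closest start.

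The L paralogues and the main copies differed in their counts. None of the 21 L paralogues had an IDR peak, which allows a share of up to 14.3% with 3 counts as the limit for a count of 0, and 14 of 59 main copies had an IDR peak (23.7%, interval 14.7 to 36.0), beside 15.8% of all genes. A pooled peak only lay at 5 L paralogues (23.8%) and 32 main copies (54.2%), beside 37.8% of all genes, and no peak at 16 L paralogues (76.2%) and 13 main copies (22.0%), beside 46.4%. In replicates 1, 2 and 3 a peak of any rank lay at 3, 6 and 9 L paralogues (14.3%, 28.6% and 42.9%), against 31, 47 and 49 main copies (52.5%, 79.7% and 83.1%), beside 42.4%, 54.1% and 55.4% of all genes. No test of this difference was made because genes of a family are not replicates.

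**Figure D3:**
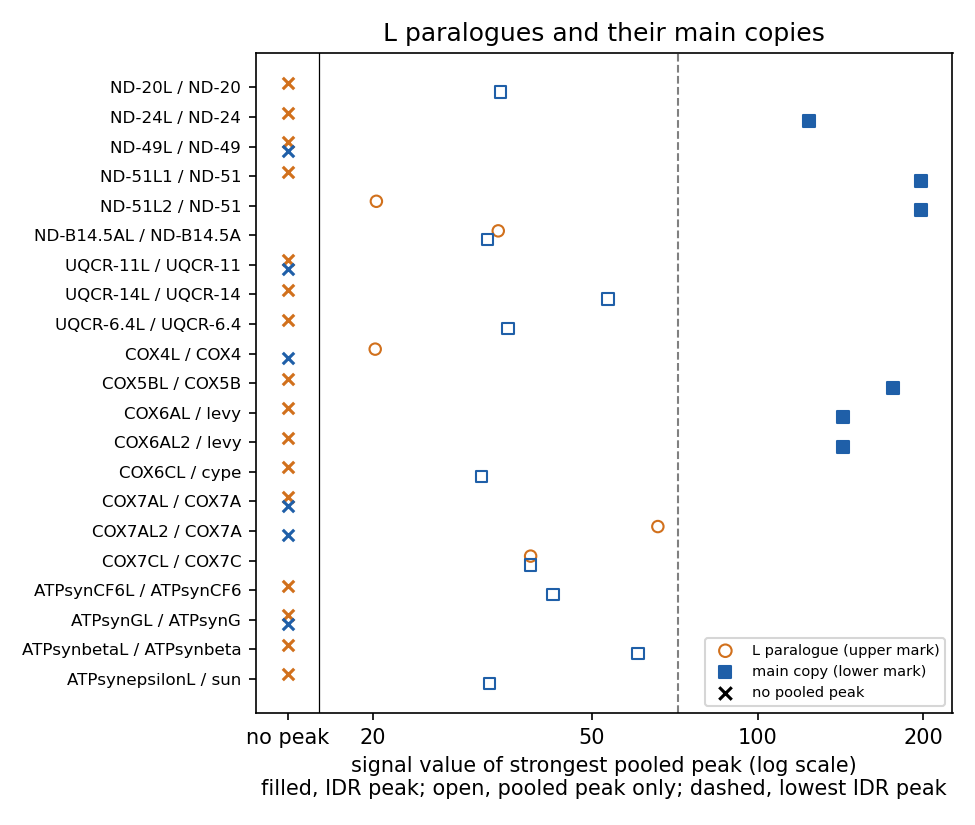
Signal value (log axis) of the strongest pooled peak within 500 bp of a TSS for each L paralogue (orange, upper mark) and its main copy (blue, lower mark) in 21 pairs, with crosses at the left for no peak. No L paralogue lies right of the dashed line at 71.8, and the main copies of 6 pairs do.

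In 6 of the 21 pairs the L paralogue had no IDR peak and the main copy had one. The 21 pairs have 18 distinct main copies, and ND-51 and levy each enter more than once among the 6. With no IDR peak at any L paralogue, no pair could show the reverse. ND-24L had no peak against 124 at ND-24, ND-51L1 had none against 198 at ND-51, and COX5BL had none against 176 at COX5B, although COX5BL starts 1631 bp from COX5B. ND-51L2 had a pooled peak of 20.3, against the 198 of ND-51, and that peak was found in replicate 1 alone, at rank 5028. COX6AL and COX6AL2 had no peak, against 143 at levy, the main copy of subunit 6A, which has its own name. In 7 pairs the L paralogue had no peak and the main copy a pooled peak only: 34.1 at ND-20, 53.5 at UQCR-14, 35.2 at UQCR-6.4, 31.5 at cype, 42.5 at ATPsynCF6, 60.6 at ATPsynbeta and 32.6 at sun, the epsilon subunit that is the main copy of ATPsynepsilonL.

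The other 8 pairs did not follow that order. Both copies were without a pooled peak in the pairs of ND-49, UQCR-11, ATPsynG and, for COX7AL, COX7A. ND-B14.5AL had 33.8, against 32.3 at ND-B14.5A. COX7CL and COX7C were reached by the same peak of 38.7, although the 5′ ends of the genes are 1995 bp apart. The summit was 480 bp from the COX7CL TSS and 387 bp from an inner TSS of COX7C. COX4L had 20.2 and COX7AL2 65.9, against no peak at COX4 and COX7A. The COX7AL2 peak lay 468 bp from its start and closer to that of CG10874, and ranked 3012, 2502 and 19864 in the replicates.

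Nearly all member peaks stood where another gene also begins. Of the 14 members with an IDR peak, 13 (92.9%) shared it with the TSS of another protein-coding gene, against 1342 of all 2200 genes with an IDR peak (61.0%). The member itself was the nearest gene, ties included, in 9 of 14 cases (64.3%), against 70.2% of all genes with an IDR peak, and the partner was nearer for ND-51, ND-MWFE, ND-42, COX5B and COX7B. Summits were upstream of the member's nearest start in 12 of 14 cases (85.7%), against 90.0%, at a median distance of 93.5 bp, against 115 bp. The 14 strongest peaks were 14 different peaks, none of them common to a pair of members.

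The position of members beside other genes went along with whether they had a peak. Another protein-coding gene started within 500 bp of 40 of the 80 members (50%), against 4309 of all genes (30.9%). Of those 40 members 13 had an IDR peak (32.5%), against 31.4% of all genes with such a neighbour, and of the other 40 members 1 had an IDR peak (2.50%), against 8.77% of all genes without such a neighbour. Among members with a neighbour the share was therefore that of any gene so placed. Only 3 of the 21 L paralogues (14.3%) had a neighbour within 500 bp, against 37 of 59 main copies (62.7%). IDR peaks lay at 0 of these 3 and 0 of the other 18 L paralogues, and at 13 of the 37 (35.1%) and 1 of the other 22 main copies (4.55%), so the part of gene neighbourhood in the difference between the copies was not tested.

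**Figure D4:**
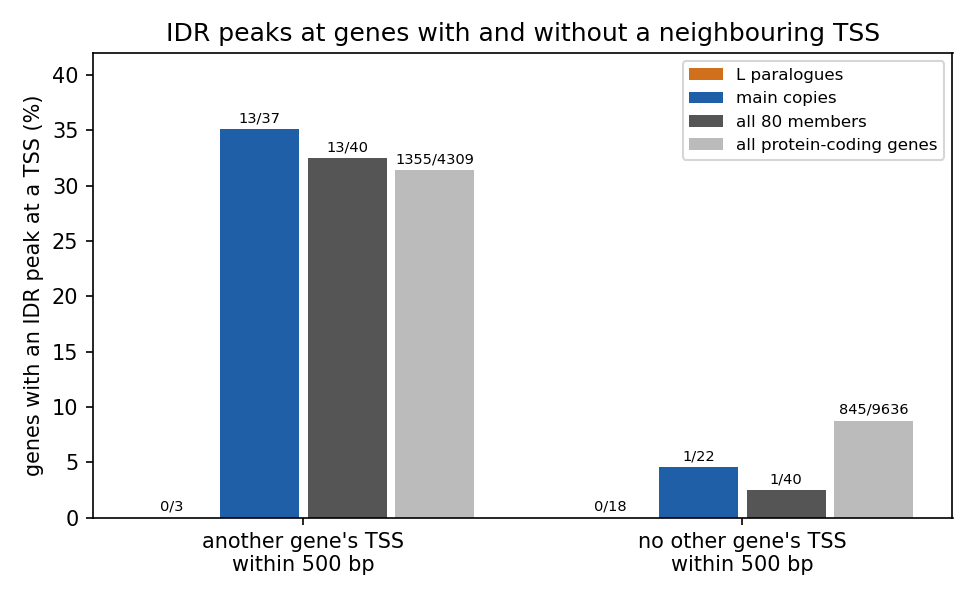
Percentage of genes with an IDR peak within 500 bp of a TSS among L paralogues, main copies, all 80 members and all protein-coding genes, split by whether another gene's TSS lies within 500 bp, with counts over the bars. With a neighbour the members stand at 32.5% beside 31.4% of all genes, and without one at 2.50% beside 8.77%.

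Nearly all these neighbours were on the opposite strand. An opposite-strand neighbour was found for 39 members, 13 of which had an IDR peak (33.3%), and the share over all genes with such a neighbour was also 33.3%, against 15.1% for genes whose only neighbours were on the same strand. With neighbours counted within 250 bp, 9 of 26 members with one had an IDR peak (34.6%), against 29.4% of all such genes. Within 1000 bp it was 13 of 48 (27.1%), against 25.9%. Partner genes with a known role included Fum1 and Cchl of the mitochondrion, corolla of the meiotic synaptonemal complex, glo, which encodes an RNA-binding protein, Sec3 and p115 of membrane traffic, IFT52 of ciliary transport, the peptidase gene TppII and Rpp20 of RNase P. The other partners were RhoGAP68F, Afti, CG13994, CG3548, CG18809, CG33932 and CG45089.

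Known promoter elements were present at different shares around member starts. Within 100 bp of the main TSS, the ETS core CCGGAA was found at 0 of the 14 members with an IDR peak and 4 of the 66 others (6.06%), against 5.92% of all genes. Those 4 were UQCR-C1, COX4, COX4L and ATPsynC, and the longer CCGGAAGT was found at no member, against 0.258% of all genes. Under the 14 member summits, within 100 bp, the ETS core was also at 0, which allows up to 21.4%, against 6.88% of the 1642 promoter IDR peaks. The DREF element TATCGATA was at 5 of 80 members (6.25%), against 7.51% of all genes, and the E-box CACGTG at 1 (1.25%), against 2.92%.

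**Figure D5:**
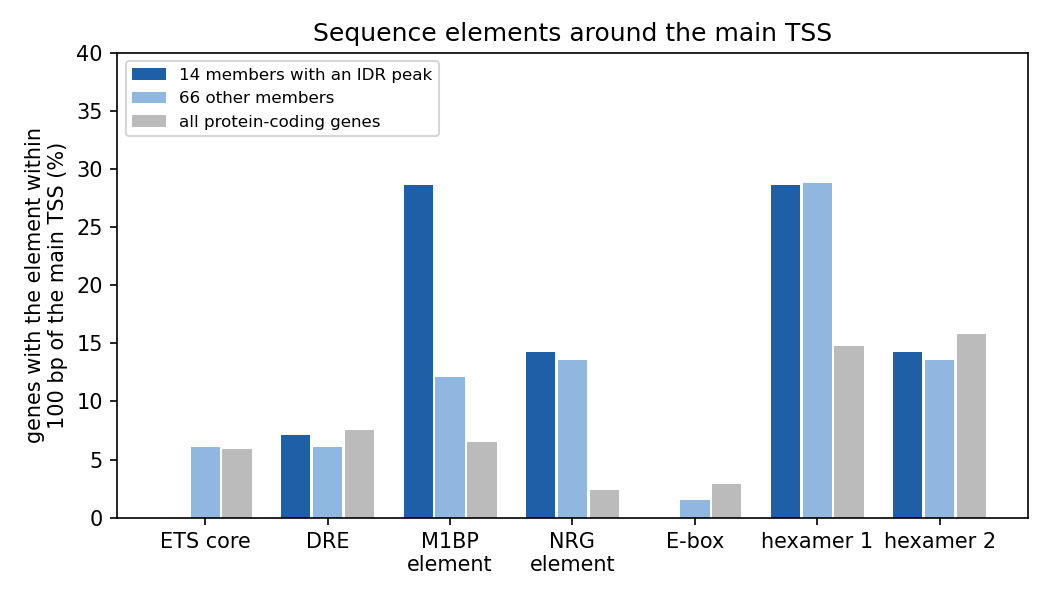
Percentage of genes with each element on either strand within 100 bp of the main TSS, for the 14 members with an IDR peak, the 66 other members and all 13945 protein-coding genes; DRE is the DREF element, hexamer 1 is ACACTG and hexamer 2 is CGATAG. The NRG element stands at 14.3% and 13.6% in the member groups beside 2.34% of all genes, and the M1BP element at 28.6% and 12.1% beside 6.52%.

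The NRG element and the M1BP element were more frequent at members than at genes in general. The NRG element, searched as TTACATAA, TTACGTAA or TTATATAA, was at 2 of the 14 members with an IDR peak (14.3%) and 9 of the 66 others (13.6%), and at 11 of all 80 (13.8%), against 327 of 13945 genes (2.34%). The M1BP element GGTCACAC was at 4 of the 14 (28.6%) and 8 of the 66 (12.1%), and at 12 of the 80 (15.0%), against 6.52%. ACACTG was at 28.6% and 28.8% of these member groups, against 14.8%, and it can overlap the M1BP element where that is followed by TG. CGATAG was at 14.3% and 13.6%, against 15.8%. The NRG shares of the 14 and the 66 were thus alike, but these groups differ in make-up. The 14 are all main copies and the 66 include the 21 L paralogues, none of which held an NRG or M1BP element. All 9 NRG and 8 M1BP carriers among the 66 were therefore main copies. Among main copies without an IDR peak the shares were thus higher than the 13.6% and 12.1% of the 66. Base composition also differed, with 35.9% and 36.6% G and C in the windows of these member groups, against 41.8% over all genes. Its part in the element counts was not tested.

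NRG elements at members lay mostly downstream of the start. Of the 11 sites at members, 9 (81.8%) lay downstream of the main TSS, against 45.5% of the 334 sites of all genes. The median offset was 59 bp over all 11 sites, against −21 bp over the sites of all genes. Within 50 bp of the start the element was found at 1 member (1.25%), against 0.846% of all genes, and within 200 bp at 16 (20%), against 5.60%. The 2 members with both the element and an IDR peak were the exceptions, with the site 86 bp upstream in ND-SGDH and in ND-MNLL. M1BP elements lay around the start, at a median of −3 bp for the 13 sites at members and for the sites of all genes.

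The sites below, 30 bases of dm6 each on the strand of the gene with the element in capitals, show this arrangement. The first 6 are NRG elements, of which the first 5 begin at 58, 61, 59, 48 and 90 bp downstream of the main TSS in members without an IDR peak, and the sixth begins 86 bp upstream in a member with an IDR peak.
ND-18, chrX:19492468-19492497, plus strand: tgttccaaattTTACGTAAttcgtattttg
ND-B18, chrX:15063969-15063998, plus strand: agaaaaacaatTTACGTAAtttaattgagc
ND-20, chrX:15986731-15986760, minus strand: ataagttgaagTTACATAAataggtattaa
ND-30, chr3L:3159512-3159541, minus strand: acattttagcaTTACATAAattgtcaaaaa
ATPsyngamma, chr3R:29749055-29749084, minus strand: ataattatgagTTACATAAattcaaattaa
ND-SGDH, chr3L:12138652-12138681, minus strand: caaaatggattTTATATAAaaatttagatc
The next 5 are M1BP elements, the first 3 in complex IV members with an IDR peak and the last 2 in members with a pooled peak only, beginning at 12, 9, −35, −15 and 29 bp from the main TSS in this order.
COX5B, chr2L:6557801-6557830, plus strand: tactttaccgcGGTCACACtgatccatagc
COX7B, chr3L:17425475-17425504, plus strand: aacaacacaacGGTCACACtgttcaacaca
COX5A, chr3R:11819313-11819342, plus strand: ttgaagatgcaGTGTGACCgcaattaaatc
ND-B17, chr2L:15751075-15751104, minus strand: tttaagagtgcGGTCACACtggcggcaaca
UQCR-Q, chr3L:17475067-17475096, plus strand: ggcccgtccacGGTCACACtggttgagacg
Of the 4 members with both an M1BP element at the main TSS and an IDR peak, 3 belonged to complex IV and the other was ND-MWFE. Under the summits themselves the M1BP element was found only for UQCR-C2 among the 14 peaks, against 6.27% of promoter IDR peaks.

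Other lists of genes that work with the members had IDR peaks at shares between 10% and 33.3%, on both sides of the 15.8% of all genes. Among 15 subunits with other names, 5 had an IDR peak (33.3%), against 15.8% of all genes, 6 a pooled peak only and 4 none. The 5 were blw, the alpha subunit of the ATP synthase head (165), levy of complex IV (143), RFeSP, the Rieske iron-sulfur protein of complex III (96.5), SdhC of complex II (88.3) and Cyt-c-d, a cytochrome c gene (212). For levy, SdhC and Cyt-c-d another gene's start was nearer to the summit. Cyt-c-p, the other cytochrome c gene of the list, had a pooled peak only (36.9), with a peak in replicate 2 alone. Of the Sdh genes with an L copy, SdhB had a pooled peak only (43.4) and SdhBL none, and SdhA and SdhAL both had none. These genes were not among the pairs of L paralogues and main copies above. With blw, the catalytic head thus had an IDR peak at its alpha subunit, beside a pooled peak only at ATPsynbeta.

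Of 17 assembly factors found in the annotation, 3 had an IDR peak (17.6%): CIA30 of complex I assembly, whose peak of 719 ranked 17, 17 and 18 in the replicates and is nearer to CG7601, Ttc19 (240.2, nearer to Acn) and the copper chaperone Cox17 (118). Of 21 genes of the tricarboxylic acid cycle, 5 had one (23.8%): the aconitase gene mAcon1 (161), the isocitrate dehydrogenase genes Idh3b (123) and Idh3g (138), Ogdh (91.0) and Fum1, whose peak is that of ND-ASHI. The starts of CG43345 and CG43346 were nearer to the mAcon1 summit, and the Idh3g peak was shared with CG4743. Of 10 genes of ADP/ATP exchange and other mitochondrial carriers and channels, 1 had an IDR peak (10%), Ucp4A (113, shared with CG8142). These shares stand beside the 15.8% of all genes, and each list holds few genes.

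A further list held 15 genes that are known or candidate regulators of the members or that act on mitochondrial DNA. Of these 15, 5 had an IDR peak (33.3%), against 15.8% of all genes. They were mtSSB, which binds single-stranded mitochondrial DNA (192), and the transcription factor genes Dref (153), ERR (151), cnc (112) and M1BP (80.1). The start of Atg18a was nearer to the ERR summit and that of CG8202 to the M1BP summit, the Dref peak was shared with RpL13, and M1BP ranked 27460 in replicate 1. Ets97D, the fly counterpart of the GABP alpha subunit, had a pooled peak of 21.8 that was found in replicate 2 only. srl, the fly counterpart of the PGC-1 coactivators, had a pooled peak of 52.2, and ewg, the counterpart of NRF-1, had 41.2.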

How the data were processed

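The labels describe 3 biological replicates of 1 group, so no groups of samples were compared and no p-value is given. Per the file headers and the labels, the authors deposited peak lists of each replicate, of the pooled replicates and of peaks passing an IDR threshold. Each peak carries a signal value, a score of unstated scale given by the authors, and a q-value deposited as −log10 q. Which aligner and caller were used, and at what IDR value peaks passed, is not given in the sources used here. The depth per sample is unknown from peak lists. Wilson intervals cover counting error over genes only, and the interval of the median signal value covers spread over genes only. Genes are not replicates, so neither kind of interval measures the spread between replicates. The dm3 lists were not used here.

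From the deposited dm6 lists, the strongest peak with a summit within 500 bp of any protein-coding TSS of each gene (Ensembl release 115, BDGP6.54) was taken from the IDR list, then from the pooled list, and peaks were ranked by signal value. Sequences and elements come from the Release 6 (dm6) genome of RefSeq; the main TSS is the start of the annotation's canonical transcript. Counts of members were set beside the same counts over all 13945 genes, with no set test. The assignment of peaks was tested on simulated data. Python 3.11.15 and scipy 1.17.1 were used.

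The members and the other lists were chosen with earlier results of these data known. Of the list symbols, 1 subunit, 27 assembly factors and 4 tricarboxylic acid cycle genes were not matched in the annotation and were not analysed here. Named genes were every member with an IDR peak, the 10 members of highest signal value with a pooled peak only, all pairs of copies and every other listed gene with an IDR peak; Ets97D, srl and ewg, ND-39, ATPsynD and COX8 were named after their values were seen. Alternatives changed the distance, the TSS set, the summit, the threshold, replicate support, the assignment of shared peaks and the element windows.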

Additional observations from a re-analysis of the deposited data

How the results depend on the processing

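No paired analysis was possible because the samples form 1 group. The 14 members with an IDR peak, all of them main copies, numbered between 8 and 14 across the alternatives run. They were 12 at 250 bp (ND-ASHI and COX5B were lost), against 12.9% of all genes, and 14 at 1000 bp (17.9% of all genes), with 1 start per gene (14.3%) and with peak midpoints (15.8%). With the IDR peaks limited to the 1390 of highest signal value, 8 members and 8 main copies remained, against 8.62% of all genes, and complexes III and V had 0 each, the peaks being fewer by construction. With support by the strongest peaks of all 3 replicates 11 members remained, against 9.77% of all genes, complex III had 0 and complex V had 1. With support needed only from the strongest peaks of the other replicates, leaving out each replicate in turn gave between 11 and 12 members. Of all genes 10.6% to 11.6% remained, and complex III had 0 and complex V 1 to 2. The IDR list from all 3 replicates was kept and not called again. This setting could therefore only remove calls, and could not leave fewer than the 11 supported by all 3. UQCR-C2 was lost whichever replicate was left out, ND-MNLL without replicate 1 or 2 and ATPsynF without replicate 2 or 3. Giving each peak to the nearest gene only left 10 members, with 2 in complex IV, since ND-51, ND-MWFE, COX5B and COX7B lay farther from their summit than another gene did. The share of all genes under this setting is not given here. By the strongest peak alone, the gene was the nearest for 9 of the 14 members (64.3%), against 70.2% of all genes with an IDR peak. L paralogues stayed at 0 under every alternative run for them. Settings that only remove calls, such as the shorter distance, the stricter threshold and the nearest gene only, could not have changed a 0. At 1000 bp and with peak midpoints, which could have added a peak, the count was also 0. Members with any peak fell to 24 when pooled peaks needed a −log10 q of at least 2. Members among the strongest peaks of all 3 replicates were 3 with lists of 1390, which hold fewer peaks by construction, and the share of all genes with these lists is not given here. The split by neighbouring start was added after seeing the data. Depth, antibody specificity and cell types were not tested.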
